A study of Mus musculus with 29 samples.

Results

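The TGF-beta activation axis was followed through 10 genes of 36172 in the deposited matrix: the integrin subunits Itgb8 and Itgav, the ligands Tgfb1, Tgfb2 and Tgfb3, the latency protein Ltbp1, the receptors Tgfbr1 and Tgfbr2, and the signal transducers Smad3 and Smad7. The genes were found by symbol, and all 10 were above 0 in every group and passed the filter on low counts in every comparison. The set was chosen by measured values, because Itgb8 was picked as the gene with the largest fall in the positive fraction of Cx3cr1-NuTRAP mice against their input. The question put to the data is which tagged cells carry the mRNA of ligand, activator and receptor.

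TGF-beta is secreted in a latent form, in which the mature cytokine stays wrapped in its own latency peptide and is usually tethered by a partner protein such as LTBP1 in the matrix. Integrin alphav beta8, the product of Itgav and Itgb8, grips the arginine-glycine-aspartate motif of that peptide and exposes the cytokine to its receptors. Active TGF-beta binds the type II receptor TGFBR2, which recruits the type I receptor TGFBR1, and the pair phosphorylates SMAD2 and SMAD3, while SMAD7 is an induced inhibitor of the pathway. In the brain, microglia are known to need TGF-beta signalling for their mature identity, and astrocytes and other neural cells are known to express beta8.

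RNA came from brains of tamoxifen-treated mice that carry a Cre-dependent NuTRAP allele, which puts an EGFP tag on a ribosomal protein, so that ribosomes of the recombined cells can be pulled down with an antibody to GFP (translating ribosome affinity purification, TRAP). Both lines were heterozygous for the NuTRAP allele and for an inducible Cre, driven by Aldh1l1 for astrocytes in Aldh1l1-cre/ERT2+; NuTRAP+ mice and by Cx3cr1 for microglia in Cx3cr1-cre/ERT2+; NuTRAP+ mice. Cx3cr1 is also active in macrophages at the borders of the brain. All mice received tamoxifen at 100 mg/kg on 5 consecutive days at about 3 months of age. The negative fraction is the RNA left unbound, the positive fraction is the RNA on the beads, the input is the cleared homogenate before the pulldown, and whole tissue is RNA extracted directly from brain. The 29 libraries of 9 mice comprised positive and negative fractions of 3 Aldh1l1-NuTRAP mice (290, 293 and 294), positive, negative and input fractions of 6 Cx3cr1-NuTRAP mice (155, 192, 194, 209, 210 and 277), and whole tissue of the last 5 of those. Input and whole tissue of the Aldh1l1 line were not analysed here, and the sex of each mouse is not in the labels.

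Total counts lay between 4260949, in the tissue library of mouse 210, and 26857866. The cell types of both pulldowns were checked with 8 markers each. Astrocyte markers summed to between 15753 and 23342 CPM (counts per 1000000 counts of the library) in the Aldh1l1 positive fraction against 3009 to 3940 in its negative fraction, and microglia markers to between 2820 and 6767 in the Cx3cr1 positive fraction against 285 to 371 in its negative fraction. Other RNA moved with the pulldowns: choroid plexus markers summed to 2961 to 3403 CPM in the Aldh1l1 positive fraction against 505 to 659 in its negative fraction, and border macrophage markers to 79.5 to 257 CPM in the Cx3cr1 positive fraction against 13.5 to 25.5 in its negative fraction. Neuron markers still summed to 5281 to 8013 CPM in the Cx3cr1 positive fraction, against 6870 to 7932 in the negative fraction. The whole tissue library of mouse 210 stood apart, with endothelial markers at 170 CPM against 285 to 317 in the other 4. Raw counts of the 10 genes were at least 31.5 in every library, which limits the precision of the lowest values.

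Itgb8, the beta subunit that with alphav activates latent TGF-beta (chromosome 12, 119162803 to 119238276, minus strand, mm10), was highest in whole tissue and in the astrocyte pulldown and lowest in the microglia pulldown. Whole tissue held 60.7, 53.8, 51.2, 23.2 and 50.1 CPM in mice 192, 194, 209, 210 and 277. The Cx3cr1 input ranged from 16.3 to 36.3 CPM with a median of 25.1, the negative fraction from 5.10 to 14.1 with a median of 9.88, and the positive fraction from 3.41 to 6.05 with a median of 4.90. Of the 6 mice, 6 held less Itgb8 in the positive than in the negative fraction, although the ranges of the fractions overlapped, and positive fraction and input did not overlap. The Aldh1l1 negative fraction held 4.49, 8.61 and 11.3 CPM of Itgb8 and the positive fraction 9.89, 38.7 and 35.8 CPM in mice 290, 293 and 294. Itgb8 was higher in the positive fraction of all 3 mice, by 2.20, 4.49 and 3.17 times, but the value of mouse 290 lay below the negative fraction of mouse 294. Over the groups, the neighbours in the order whole tissue, Aldh1l1 positive, Cx3cr1 input overlapped, as did Cx3cr1 negative, Aldh1l1 negative and Cx3cr1 positive, and the first 3 means (47.8, 28.1 and 25.7 CPM) were separated from the last 3 (9.95, 8.14 and 4.77 CPM) between Cx3cr1 input and Cx3cr1 negative. Mouse 290 was the exception, since its Aldh1l1 positive library lay within the range of both negative fractions. That library also held the least astrocyte marker RNA of the 3, 15753 CPM against 23342 and 21996, and the most microglia marker RNA, 86.8 CPM against 29.1 and 34.0. The part of this in its levels of Itgb8 and Itgav was not tested.

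**Figure D1:**
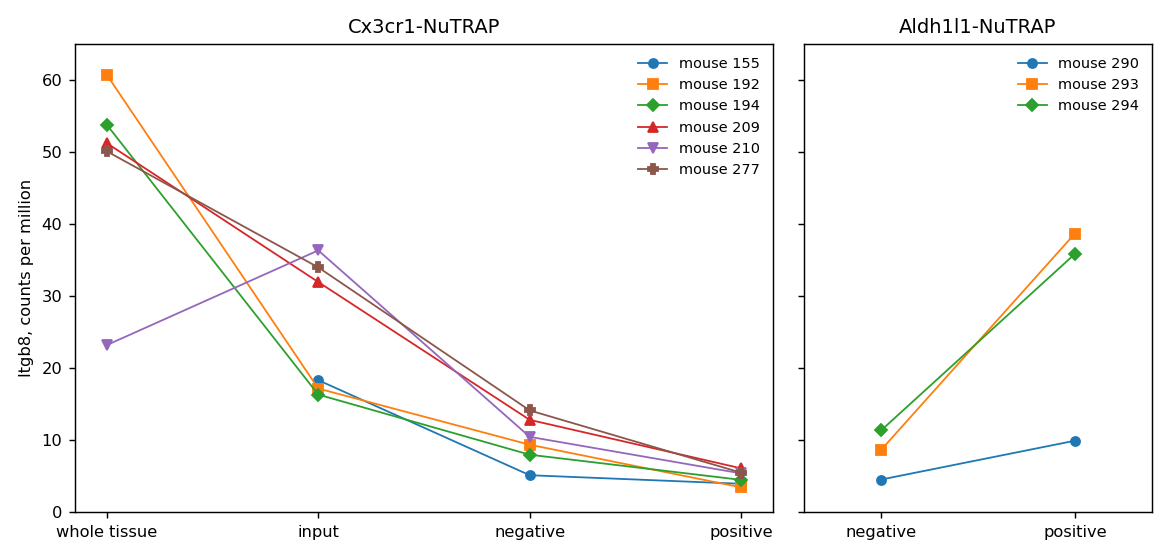
Itgb8 in CPM (y axis) along the fractions of each mouse (x axis), with 1 line per mouse, for the Cx3cr1-NuTRAP line (left) and the Aldh1l1-NuTRAP line (right). Every Cx3cr1 line ends between 3.41 and 6.05, mouse 210 is the only one that rises from whole tissue to input, and the 3 Aldh1l1 lines rise from negative to positive fraction.

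In the Aldh1l1 line, whose libraries had no part in the choice of Itgb8, the gene rose in the positive fraction by 2.12 on the log2 scale (SE 0.53, 4.33-fold), with an adjusted p of 0.0126 by edgeR's quasi-likelihood test. Of the 10 genes, 4 were higher, 3 lower and 3 not called in that comparison, in which 26.8% of all genes tested were called higher and 24.8% lower, 51.6% in all. Without mouse 293 the change was 1.82 with an adjusted p of 0.0938. Choroid plexus markers were called higher in the same comparison in 8 of 8 cases, and their median log2 difference was 2.18. Their part in the rises of Itgb8 and, below, Itgav, Tgfb2 and Ltbp1 in the Aldh1l1 line was not tested. The 4.33-fold rise is over unbound RNA, which in every Cx3cr1 mouse held less Itgb8 than input, and no Aldh1l1 input was analysed. Mean Itgb8 was 28.1 CPM in the Aldh1l1 positive fraction, 25.7 in Cx3cr1 input and 47.8 in Cx3cr1 whole tissue. Astrocyte markers summed to medians of 21996, 4508 and 4886 CPM in the same groups. Here, as for every gene below, a bulk level cannot tell fewer cells of a type from less RNA per cell.

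The values that chose Itgb8 are given as a description only. Against input, Itgb8 in the Cx3cr1 positive fraction was lower by 2.42 on the log2 scale (SE 0.24), the largest fall of all 13838 genes tested, and the next was Gprin3 with a fall of 2.34. In this comparison 23.3% of all genes were called higher and 25.6% lower, 48.9% in all. Median log2 differences of markers were -0.35 for astrocytes, -0.12 for neurons, -0.60 for oligodendrocytes and -0.69 for oligodendrocyte precursors. The largest fall among these markers was that of Pdgfra, by 1.27. Which cells account for the fall of Itgb8 was not tested. The log2 difference of Itgb8 within a mouse ran from -2.75 to -1.78 over the 6 mice. Itgb8 differed by -3.32 (SE 0.22) from whole tissue and by -1.03 (SE 0.22) from the negative fraction on the log2 scale, comparisons that share the positive libraries and were not tested for this gene. The unbound RNA was also below input in 6 of 6 mice, at 0.28 to 0.54 of the input level of the same mouse. The inputs fell into 2 sets that the labels do not explain: mice 155, 192 and 194 held 16.3 to 18.3 CPM of Itgb8 and mice 209, 210 and 277 held 31.9 to 36.3 CPM. The same mice lay on opposite sides of the first principal component of the 6 inputs, which took 43.9% of the variance. Within the first set the log2 difference of positive fraction to input ran from -2.23 to -1.78 and within the second from -2.75 to -2.41. The longest transcript of Itgb8 has 8403 bases, longer than that of 94.8% of the genes tested. The 1302 genes with the longest transcripts had a median log2 difference of -0.34 in this comparison against 0.29 for the 1302 with the shortest. In the Aldh1l1 positive over negative fraction, where Itgb8 rose, the medians were -0.45 for the longest 1254 and 0.60 for the shortest 1256 genes. The part of length in either difference was not tested.

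Itgav, the alphav partner of beta8 and of other beta subunits (chromosome 2, 83724397 to 83806916, plus strand), was higher in the astrocyte and lower in the microglia pulldown than in the unbound RNA. The Aldh1l1 positive fraction held 91.7, 127 and 123 CPM and the negative fraction 85.0, 94.4 and 86.2 CPM in mice 290, 293 and 294, with an overlap that came from mouse 290. Itgav rose by 0.70 on the log2 scale (SE 0.16, adjusted p = 0.00942 by edgeR), in 3 of 3 mice. The call was lost without mouse 293 (0.66, adjusted p = 0.108), without mouse 294 (0.63, adjusted p = 0.135) and with library totals in place of the scaling factors (0.36, adjusted p = 0.115). Itgav in the Cx3cr1 line ranged from 58.1 to 76.1 CPM with a median of 61.4 in the positive fraction and from 84.1 to 90.8 CPM with a median of 87.5 in the negative fraction, with no overlap. It fell by 0.40 (SE 0.07, adjusted p = 0.00127), in 6 of 6 mice, and by 0.54 against whole tissue (SE 0.09, adjusted p = 0.000284). From negative to positive Cx3cr1 fraction, astrocyte markers fell in 5 of 8 cases (median -0.42), oligodendrocyte markers in 7 of 8 (-0.62) and oligodendrocyte precursor markers in 6 of 8 (-0.63). Over all genes 11.6% were called lower. Oligodendrocyte markers were called lower in 4 of 8 cases without mouse 192 and in 5 of 8 without mouse 277. The part of these 3 marker lists in the differences of Itgav, Tgfb2, Ltbp1 and Smad7 in that comparison was not tested.

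The other beta subunits placed Itgb8 among the partners and relatives of alphav. Per kilobase of exons, a scale that allows genes to be compared, Itgb8 stood at 2.54 CPM per kb in the Aldh1l1 positive fraction, 0.431 in the Cx3cr1 positive fraction and 4.32 in whole tissue. Itgb5, which also pairs with alphav, was the most abundant beta subunit in both pulldowns, at 72.7 and 109 CPM per kb, against 22.3 in whole tissue. Itgb1, the widely used beta1 subunit, stood at 23.5 and 22.7 CPM per kb in the 2 pulldowns. Itgb2, the leukocyte beta2 subunit, was at 25.3 CPM per kb in the microglia pulldown and at 0.288 in the astrocyte pulldown, and Itgb3 was at 2.42 and 0.233. Itgb4, Itgb6 and Itgb7 were below 2 CPM per kb in both pulldowns, at 0.523, 0.141 and 0.136 in the astrocyte one and 1.98, 0.101 and 0.807 in the microglia one. In log2 positive over negative fraction, with adjusted p-values of edgeR below the threshold in each case, Itgb5 rose in both lines, by 2.61 (SE 0.19) in Aldh1l1 and 2.35 (SE 0.16) in Cx3cr1, and Itgb3 fell by 1.94 (SE 0.31) in Aldh1l1 and rose by 1.52 (SE 0.16) in Cx3cr1. Itgb1 also rose in both, by 0.99 (SE 0.18) and 0.48 (SE 0.09). Itgb2 rose by 3.65 (SE 0.19) in Cx3cr1 and fell by 1.94 (SE 0.54) in Aldh1l1. Itgb4 fell by 0.69 (SE 0.14) in Cx3cr1 and by 2.12 (SE 0.25) in Aldh1l1. Itgb7 was tested in Cx3cr1 alone (0.06, SE 0.22, adjusted p = 0.878), and Itgb6 was not tested in either line. In the Aldh1l1 line the call of Itgb1 was lost without mouse 294 (0.97, adjusted p = 0.0536). That of Itgb2 was lost without mouse 293 (-1.82, adjusted p = 0.142) or mouse 294 (-1.48, adjusted p = 0.0859).

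The ligands differ in the site that alphav beta8 binds, and their sequences are shown for that reason. Each line gives coding bases of the latency peptide 5′ to 3′ in the sense direction (GRCm38, the assembly also called mm10), with 24 bases on either side of 3 codons in capitals. The capitals mark the codons for arginine, glycine and aspartate in Tgfb1 (chr7:25696989-25697174, plus strand, across an exon junction, from codon 244 of 390) and in Tgfb3 (chr12:86062141-86062197, minus strand, from codon 261 of 412). In Tgfb2 (chr1:186630729-186630785, minus strand, from codon 261 of 414) they mark the codons aligned with those, because neither of its annotated coding transcripts holds such a run.
Tgfb1: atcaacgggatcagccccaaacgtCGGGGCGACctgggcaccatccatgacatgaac
Tgfb2: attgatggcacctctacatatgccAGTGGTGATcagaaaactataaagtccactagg
Tgfb3: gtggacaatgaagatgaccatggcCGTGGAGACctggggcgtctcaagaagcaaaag

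Tgfb1 (chromosome 7, 25687002 to 25704996, plus strand) was highest in the microglia pulldown. It ranged from 31.0 to 82.7 CPM with a median of 44.3 in the Cx3cr1 positive fraction and from 5.97 to 7.77 CPM with a median of 6.51 in the negative fraction, with no overlap. Tgfb1 rose by 2.88 on the log2 scale (SE 0.21, 7.38-fold, adjusted p = 1.36e-07 by edgeR), in 6 of 6 mice, in a comparison that called 3 of the 9 genes tested higher, 2 lower and 4 not, and 12.8% of all genes higher and 11.6% lower, 24.3% in all. Against whole tissue, which held 6.42, 6.35, 5.87, 7.40 and 6.06 CPM, it rose by 2.94 (SE 0.25, adjusted p = 1.46e-06). In that comparison 4 of the 9 genes were higher, 3 lower and 2 not called, and of all genes 27.5% were higher and 24.3% lower, 51.8% in all. The library of mouse 194 stood apart at 82.7 CPM and also held the most microglia marker RNA, 6767 CPM, and border macrophage marker RNA, 257 CPM. Set against the summed microglia markers, Tgfb1 was even across the 6 mice, between 1.07% and 1.22%. Without mouse 194 its rise over the negative fraction was 2.63. Tgfb1 in the Aldh1l1 line held 6.87, 7.30 and 5.64 CPM in the negative and 3.37, 2.76 and 2.30 CPM in the positive fraction. It fell there by 0.89 (SE 0.27, adjusted p = 0.0248), in 3 of 3 mice, a call that was lost without mouse 293 (-0.81, adjusted p = 0.209) or mouse 294 (-0.85, adjusted p = 0.161). Microglia markers fell in 8 of 8 cases (median -2.48), neuron markers in 8 of 8 (-1.58) and oligodendrocyte markers in 7 of 8 (-2.51) in the same Aldh1l1 comparison. Over all genes it called 24.8% lower. The part of these markers in the falls of Tgfb1 and, below, Tgfbr1 and Smad7 was not tested.

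Tgfb2, the ligand without the integrin motif (chromosome 1, 186623186 to 186705992, minus strand), was highest in the astrocyte pulldown. The Aldh1l1 positive fraction held 27.1, 35.3 and 32.7 CPM, above all other libraries, and the negative fraction 14.9, 15.2 and 13.8 CPM. Tgfb2 rose by 1.46 on the log2 scale (SE 0.17, 2.75-fold, adjusted p = 0.000391), in 3 of 3 mice. Tgfb2 in the Cx3cr1 line ranged from 9.81 to 14.4 CPM with a median of 11.4 in the positive and from 12.6 to 16.2 CPM with a median of 14.9 in the negative fraction, a log2 difference of -0.29 (SE 0.11, adjusted p = 0.0657) that missed the threshold although it was negative in 6 of 6 mice. Against whole tissue (16.9, 18.4, 14.9, 20.1 and 19.3 CPM) Tgfb2 fell by 0.58 (SE 0.12, adjusted p = 0.00151).

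Tgfb3 (chromosome 12, 86056743 to 86079041, minus strand) was the ligand with the flattest profile. In the Cx3cr1 positive fraction it ranged from 16.6 to 18.8 CPM with a median of 17.8 and in the negative fraction from 14.4 to 23.5 CPM with a median of 21.1, a log2 difference of -0.19 (SE 0.11, adjusted p = 0.215). Without mouse 155 this was -0.27 with an adjusted p of 0.0214. The Aldh1l1 positive fraction held 8.07, 11.3 and 14.0 CPM and the negative fraction 16.8, 16.3 and 18.03 CPM, which did not overlap. After scaling of the libraries the difference was -0.27 (SE 0.22, adjusted p = 0.336), and only 2 of 3 mice were lower. The scaling factors of these positive libraries were 0.731 to 0.779, below those of all others, so that scaling raises every value in them.

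Per kilobase, the make-up of the ligand mRNA differed between the fractions. Tgfb1 took 55.1% ± 9.3 (SD, n = 6) of the summed ligand level in the Cx3cr1 positive fraction, against 13.3% ± 1.66 (n = 6) in its negative fraction and 12.3% ± 0.472 (n = 5) in whole tissue. Tgfb2 took 58.9% ± 3.3 (SD, n = 3) in the Aldh1l1 positive fraction, against 28.5% ± 1.29 (n = 3) in its negative fraction, and Tgfb1 took 6.2% ± 2.18 there. Tgfb3 took the largest share in both negative fractions, in input and in whole tissue, between 56.8% and 61.1%. With the longest transcript in place of all exons the share of Tgfb1 in the Cx3cr1 positive fraction was 69.5% and that of Tgfb2 in the Aldh1l1 positive fraction 58.6%. On that length Tgfb1 took 22.4% in the Cx3cr1 negative fraction, 20.9% in whole tissue and 10.6% in the Aldh1l1 positive fraction. The summed ligand level was 16.7 ± 3.27 CPM per kb in the microglia pulldown and 9.32 ± 1.38 in the astrocyte pulldown, with no overlap between the libraries, and 26.1 and 10.6 with the longest transcript. These sums are unscaled. The scaling factors were 0.731 to 0.779 in the astrocyte and 0.988 to 1.05 in the microglia libraries, so scaling would narrow the gap. The microglia sum includes Tgfb3, at a mean of 17.7 CPM against 20.6 CPM in the negative fraction. The part of RNA from other cells in the sums was not tested.

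**Figure D2:**
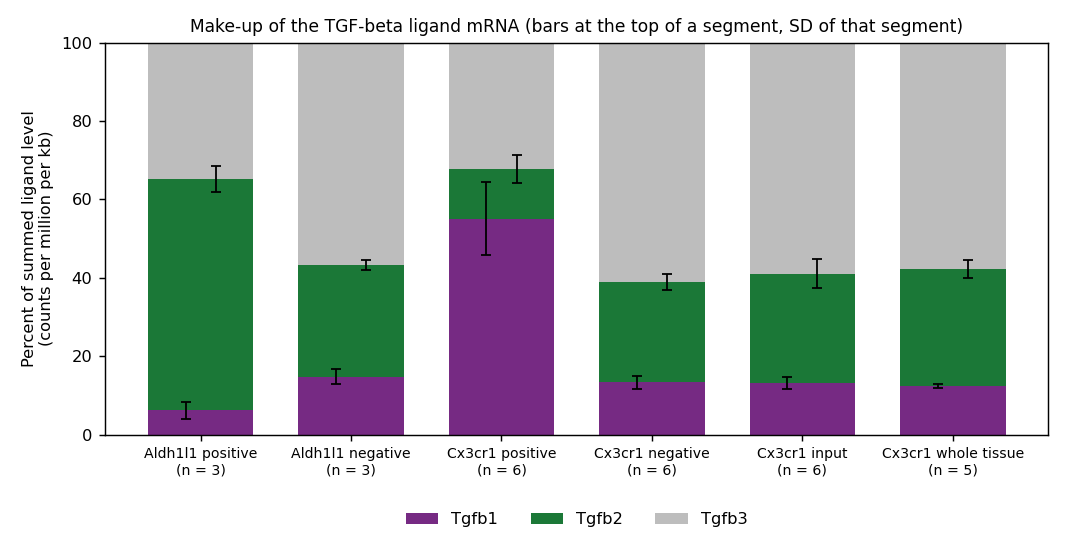
Mean share of Tgfb1, Tgfb2 and Tgfb3 in their summed level (CPM per kb of exons, y axis in percent) in each group of libraries (x axis), with the SD of the Tgfb1 and Tgfb2 shares as bars. Tgfb1 makes up 55.1% in the Cx3cr1 positive fraction and Tgfb2 58.9% in the Aldh1l1 positive fraction, while Tgfb3 is the largest share in the other 4 groups.

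Ltbp1, which binds the latent complex to the matrix (chromosome 17, 75005529 to 75392967, plus strand), was highest in the astrocyte pulldown. It held 21.0, 25.4 and 23.7 CPM in the Aldh1l1 positive and 10.5, 10.4 and 6.59 CPM in the negative fraction, and all positive libraries were above every other library of the series. Ltbp1 rose by 1.70 on the log2 scale (SE 0.23, 3.25-fold, adjusted p = 0.000838), in 3 of 3 mice. Ltbp1 in the Cx3cr1 line ranged from 5.19 to 7.68 CPM with a median of 5.72 in the positive and from 5.67 to 9.39 CPM with a median of 8.10 in the negative fraction. That log2 difference of -0.37 (SE 0.14, adjusted p = 0.0722) missed the threshold and was negative in 6 of 6 mice. Without mouse 155 it was -0.42 with an adjusted p of 0.0362.

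The other carriers and matrix partners of the latent complex were measured as a list of 11 genes. In the Aldh1l1 positive over negative fraction 2 were higher, 5 lower and 4 not called, with a median of -0.91 against 0.04 for all genes tested, of which 26.8% were higher and 24.8% lower. The called rises were Nrros, which anchors latent TGF-beta on the cell surface of microglia, by 1.35 (SE 0.34, adjusted p = 0.013) and Ltbp3 by 0.74 (SE 0.18, adjusted p = 0.0101), and the largest falls were those of the matrix genes Fbn2 by 2.06 and Dcn by 1.23. In the Cx3cr1 line 2 were higher, 1 lower and 8 not called, beside 12.8% higher and 11.6% lower over all genes, with Nrros up by 1.43 (SE 0.21, adjusted p = 0.000219), Ltbp4 up by 0.49 and Dcn down by 0.56, and the median was 0.01 against -0.02 for all genes. Only 1 rise was called without mouse 155, 192, 194 or 277, and the fall was not called without mouse 192 or 194. Nrros held 6.70 to 16.7 CPM in the astrocyte and 7.89 to 21.2 CPM in the microglia pulldown, and its levels in the 2 differed by 0.14 (SE 0.34, adjusted p = 0.725). Without mouse 293 or mouse 294 neither rise was called in the Aldh1l1 line, and only 2 falls were. On library totals Ltbp3 was at 0.40 (adjusted p = 0.0992) there.

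The type I receptor Tgfbr1 (chromosome 4, 47353305 to 47414924, plus strand) was the most abundant of the 10 genes per kilobase in the microglia pulldown. It ranged from 115 to 234 CPM with a median of 148 in the Cx3cr1 positive and from 20.9 to 31.3 CPM with a median of 28.9 in the negative fraction. Tgfbr1 rose by 2.50 on the log2 scale (SE 0.16, 5.66-fold, adjusted p = 3.73e-08), in 6 of 6 mice with no overlap, and by 2.39 over whole tissue (SE 0.19, adjusted p = 8.89e-07), which held 30.2, 33.7, 28.1, 23.1 and 35.3 CPM. In the Aldh1l1 line it held 22.2, 35.1 and 32.4 CPM in the negative and 10.4, 15.8 and 14.1 CPM in the positive fraction. It fell by 0.80 (SE 0.23, adjusted p = 0.022), in 3 of 3 mice, and this call was lost without mouse 293 (-0.82, adjusted p = 0.109) or mouse 294 (-0.78, adjusted p = 0.153).

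The ligand-binding type II receptor Tgfbr2 (chromosome 9, 116087695 to 116175363, minus strand) ranged from 60.6 to 104 CPM with a median of 73.5 in the Cx3cr1 positive and from 13.3 to 23.3 CPM with a median of 21.7 in the negative fraction. It rose by 1.96 on the log2 scale (SE 0.15, 3.89-fold, adjusted p = 2.56e-07), in 6 of 6 mice. Over whole tissue (36.9, 32.7, 40.7, 27.8 and 35.8 CPM) the rise was 1.15 (SE 0.14, adjusted p = 2.89e-05). Tgfbr2 in the Aldh1l1 line held 15.4, 16.4 and 15.4 CPM in the negative and 7.71, 12.1 and 7.98 CPM in the positive fraction, a log2 difference of -0.41 (SE 0.22, adjusted p = 0.159) after scaling and of -0.76 (adjusted p = 0.0237) on library totals. Mouse 194 was again the highest Cx3cr1 positive library for both receptors, at 234 and 104 CPM, and without it the rises over the negative fraction were 2.35 and 1.80. Relative to the summed microglia markers Tgfbr1 ran from 3.45% to 4.07% and Tgfbr2 from 1.54% to 2.44% over the 6 mice, with Tgfbr2 above 2% in mice 209, 210 and 277 and below 1.61% in the other 3. Endothelial markers in these libraries summed to 189, 188 and 175 CPM in mice 209, 210 and 277 and to 94.9, 111 and 115 CPM in mice 155, 192 and 194. Their part in the level of Tgfbr2, which endothelial cells also express, was not tested.

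The related receptors were a list of 8 genes, of which 7 were tested; over all genes 12.8% rose and 11.6% fell in the Cx3cr1 and 26.8% and 24.8% in the Aldh1l1 comparison. In the Cx3cr1 positive over negative fraction 2 rose, the endothelial and macrophage co-receptor Eng by 1.398 (SE 0.15) and Acvrl1 by 0.62 (SE 0.14), and 3 fell, the largest being the co-receptor Tgfbr3 by 0.47 and the activin receptor Acvr2a by 0.43, with a median of -0.24 for the list. All 3 falls lost their call without mouse 192 or mouse 277, only 1 was called without mouse 209, and 4 were called without mouse 155. In the Aldh1l1 line Bmpr1a, a type I receptor for bone morphogenetic proteins, rose by 2.30 (SE 0.22, adjusted p = 0.000185), Acvr2a fell by 1.11 (SE 0.22, adjusted p = 0.0045), and the other 5 were not called. Without mouse 294 the fall of Acvr2a lost its call (-1.02, adjusted p = 0.0619).

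Smad3, which carries the signal to the nucleus (chromosome 9, 63646767 to 63757994, minus strand), lay close to the threshold in the Aldh1l1 line. In the Cx3cr1 line it ranged from 49.5 to 65.5 CPM with a median of 57.7 in the positive and from 46.2 to 71.3 CPM with a median of 60.0 in the negative fraction, a log2 difference of -0.01 (SE 0.10, adjusted p = 0.974). The Aldh1l1 fractions held 46.3, 65.7 and 70.0 CPM in the negative and 51.7, 78.6 and 112 CPM in the positive fraction, higher in 3 of 3 mice but overlapping. The difference of 0.75 (SE 0.28, adjusted p = 0.0582) missed the threshold in the fit without mouse and passed it with the mouse as a block, at 0.72 (adjusted p = 0.000401), with DESeq2, at 0.72 (adjusted p = 0.0364), and without mouse 290, at 0.80 (adjusted p = 0.00233). Whole tissue held 35.3, 38.2, 28.4, 47.9 and 39.2 CPM, below every input library, and Smad3 was higher in the Cx3cr1 positive fraction than in tissue by 0.65 (SE 0.12, adjusted p = 0.000705).

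Smad7, the inhibitor that competes for the receptor (chromosome 18, 75367365 to 75395934, plus strand), was lowest in the astrocyte pulldown. It held 44.6, 49.9 and 44.1 CPM in the Aldh1l1 negative and 10.5, 17.6 and 16.5 CPM in the positive fraction, and the positive libraries were below all others of the series. Smad7 fell by 1.28 on the log2 scale (SE 0.21, 2.43-fold, adjusted p = 0.00206), in 3 of 3 mice, in the comparison in which oligodendrocyte, neuron and microglia markers fell. Smad7 in the Cx3cr1 line ranged from 28.7 to 37.4 CPM with a median of 30.3 in the positive and from 36.7 to 45.6 CPM with a median of 39.6 in the negative fraction. That fall of 0.29 (SE 0.09, adjusted p = 0.0228), in 5 of 6 mice, lost its call without mouse 192 (adjusted p = 0.125), mouse 194 (adjusted p = 0.0929) or mouse 277 (adjusted p = 0.0704). Against whole tissue Smad7 fell by 0.53 (SE 0.09, adjusted p = 0.000284).

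**Figure D3:**
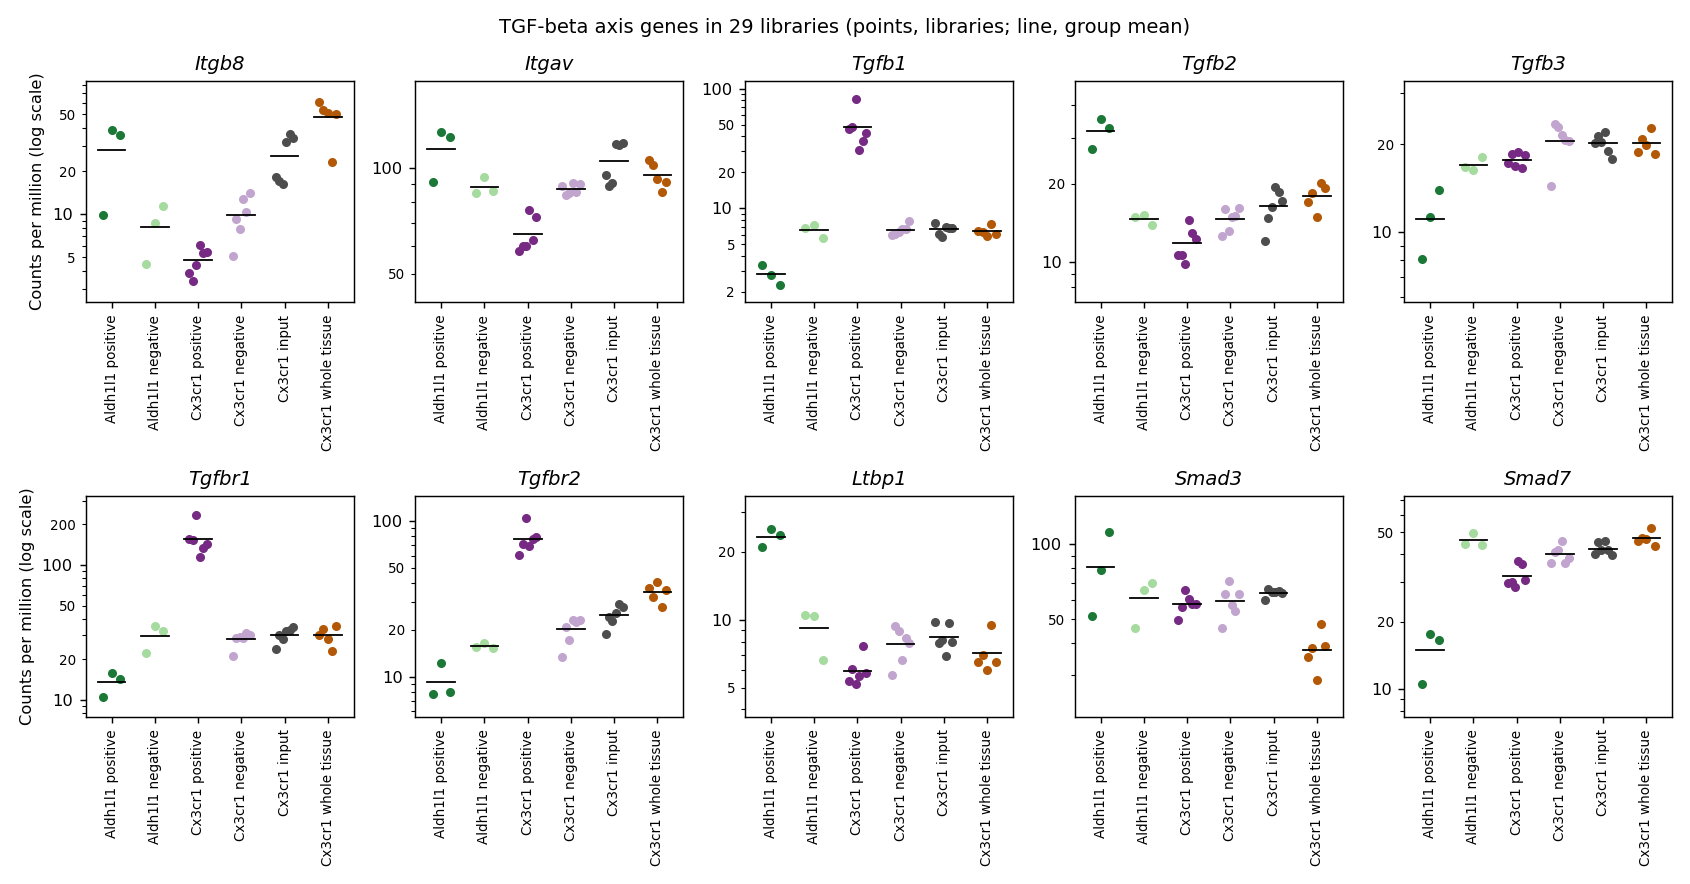
CPM (log y axis, its own range in each panel) of the 10 genes in every library (points) with the group mean (line), for the 6 groups on the x axis. Tgfb1, Tgfbr1 and Tgfbr2 stand highest in the Cx3cr1 positive fraction, Tgfb2 and Ltbp1 highest and Smad7 lowest in the Aldh1l1 positive fraction, and Itgb8 falls from whole tissue to the Cx3cr1 positive fraction.

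The other SMAD genes, a list of 6, were called higher in 3 and lower in 0 cases in the Aldh1l1 line, with a median of 0.71 against 0.04 for all genes, of which 26.8% were higher and 24.8% lower. The largest rises were those of the inhibitor Smad6 by 2.11 (SE 0.37, adjusted p = 0.00262) and of Smad9, which serves the bone morphogenetic protein branch, by 1.23 (SE 0.22, adjusted p = 0.00276). Without mouse 293 Smad9 was at 1.10 (adjusted p = 0.0516). The Cx3cr1 line gave log2 differences of -0.26 to 0.55, whose smallest adjusted p by edgeR was 0.062 (Smad5), and 1 of the 6 was called lower by DESeq2, by edgeR on library totals and by edgeR without mouse 155. Among 12 tested modulators of the pathway, 2 rose in the Aldh1l1 line (the corepressor Tgif1 by 2.14 and the decoy receptor Bambi by 1.60) and 3 fell (among them the corepressor Skil by 1.24 and the ubiquitin ligase Nedd4l by 1.18). Among Cx3cr1 fractions 2 rose, Tgif1 by 1.29 and Pmepa1 by 0.69, and 1 fell, Fkbp1a by 0.34, beside 12.8% higher and 11.6% lower over all genes. That fall lost its call without mouse 155, 192, 194 or 277, with adjusted p of 0.0771 to 0.111. The list medians were -0.05 and 0.02, close to those of all genes, and on library totals 6 rather than 3 modulators were lower in the Aldh1l1 line. The count in the Aldh1l1 line was 4 higher and 5 lower without mouse 290, 2 and 2 without mouse 293, and 1 and 2 without mouse 294, beside 26.8% higher and 24.8% lower over all genes.

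Of other activators, 7 of 10 were tested in the Aldh1l1 line, where 5 rose and 1 fell, with a median of 0.99 against 0.04 for all genes, of which 26.8% were called higher and 24.8% lower. The count was 3 higher and 1 lower without mouse 294, and 5 higher and 2 lower without mouse 290. Mmp14, a membrane protease, rose by 3.03 (SE 0.17), from 20.6 to 24.95 CPM in the negative to 138 to 154 CPM in the positive fraction, and Itgb5 was next. Of 9 tested in the Cx3cr1 line, 3 rose, led by Itgb5 and Itgb3, and 1 fell, the thrombospondin Thbs2 by 0.51, with a median of 0.48 against -0.02 for all genes, of which 12.8% were higher and 11.6% lower. Genes known as targets of TGF-beta or related ligands split in both lines: in Aldh1l1 3 of 7 rose, led by Id3 (3.60, SE 0.35) and Id1 (2.65, SE 0.33), and 3 fell, led by Tgfbi (-2.08, SE 0.43) and Col1a1 (-1.48, SE 0.19), against 26.8% higher and 24.8% lower over all genes. The count of these targets was 5 higher and 4 lower without mouse 290, and 2 higher and 3 lower without mouse 293 or mouse 294. In Cx3cr1 Tgfbi alone of 8 rose, by 1.49 (SE 0.18), and 3 fell, led by Col1a2 (-0.86, SE 0.13) and Col1a1 (-0.67, SE 0.23), against 12.8% higher and 11.6% lower over all genes. Col1a1 lost its call without mouse 192, 194, 209, 210 or 277, which left 2 falls, and without mouse 192 a second target was called higher. Id1 and Id3 are foremost targets of bone morphogenetic proteins, and Tgfbi is a matrix gene known from macrophages and fibroblasts.

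A list of 10 microglial genes known to depend on TGF-beta signalling, one of which, Cx3cr1, is also a microglia marker above, was higher in the Cx3cr1 positive than in the negative fraction in 10 of 10 cases, from Sall1 at 1.28 to Slc2a5 at 3.63, with a median of 3.45 against -0.02 for all genes, of which 12.8% were called higher. Microglia markers rose in 8 of 8 cases (median 3.75) and border macrophage markers in 8 of 8 (3.16) in the same comparison, so the list moved with the markers of the tagged cells. Leaving out any mouse left all 10 called. In the Aldh1l1 line 8 of the 10 fell, led by Gpr34 (-2.68, SE 0.40) and P2ry13 (-2.59, SE 0.49), and the phagocytic receptor Mertk, which astrocytes also express, rose by 2.22 (SE 0.52), where 24.8% of all genes were called lower and 26.8% higher and microglia markers fell in 8 of 8 cases (median -2.48). Without mouse 293 only 4 of these falls were called and without mouse 294 only 6, and Mertk was called in neither case.

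The positive fractions of the 2 lines were compared directly, with the limit that mouse line and cell type cannot be told apart. The study describes a longer wait between tamoxifen and collection for Cx3cr1-NuTRAP than for Aldh1l1-NuTRAP brains, so the interval cannot be told apart from the line either. Of the 9 genes tested, 4 were higher in the Aldh1l1 positive fraction, 4 were lower and Tgfb3 was not called, where 30.6% of all genes were called higher and 33.1% lower, 63.7% in all. Itgav (1.12, SE 0.12, adjusted p = 1.72e-05), Tgfb2 (1.74, SE 0.14, adjusted p = 1.49e-06), Ltbp1 (2.29, SE 0.15, adjusted p = 2.86e-07) and Smad3 (0.79, SE 0.19, adjusted p = 0.00351) were higher on the astrocyte side. Tgfb1 (-3.80, SE 0.37, adjusted p = 6.05e-06), Tgfbr1 (-3.22, SE 0.26, adjusted p = 1.7e-06), Tgfbr2 (-2.73, SE 0.23, adjusted p = 1.83e-06) and Smad7 (-0.79, SE 0.17, adjusted p = 0.0018) were lower. Tgfb1 was thus 14.0-fold, Tgfbr1 9.34-fold and Tgfbr2 6.62-fold higher in the microglia pulldown. Itgb8 was higher in the astrocyte pulldown by 2.87 (SE 0.33, 7.31-fold), given without a test, and the libraries of the 2 groups did not overlap. On library totals Tgfb3 was also lower, by 0.67 (adjusted p = 0.0053), and without mouse 294 by 0.54 (adjusted p = 0.0221). The balance over all genes differed with the scaling: 48.0% of the calls were higher with scaling factors and 31.4% on library totals, and the corresponding shares were 52.0% and 33.6% in the Aldh1l1 positive over negative fraction.

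**Figure D4:**
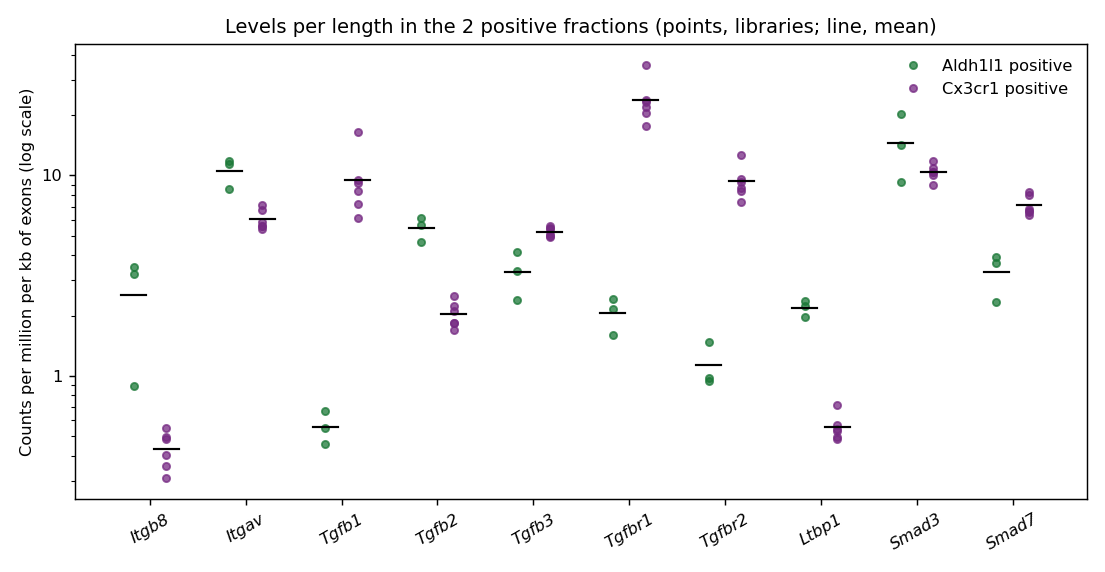
CPM per kb of exons (log y axis) of the 10 genes (x axis) in the libraries (points) of the Aldh1l1 and the Cx3cr1 positive fraction, with the mean as a line. Tgfbr1 is highest in the Cx3cr1 positive fraction at 23.8 and Itgb8 lowest at 0.431, and in the Aldh1l1 positive fraction Smad3 has the highest mean at 14.6, overlapping with Itgav, and Tgfb1 lowest at 0.558.

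Within a pulldown, the order of the genes per kilobase was Smad3, Itgav, Tgfb2, Smad7, Tgfb3, Itgb8, Ltbp1, Tgfbr1, Tgfbr2, Tgfb1 in the Aldh1l1 positive fraction. Neighbours from Smad7 (3.30) to Tgfbr1 (2.06 CPM per kb) overlapped between libraries, as did Smad3 and Itgav, so that only the steps from Itgav to Tgfb2, from Tgfb2 to Smad7, from Tgfbr1 to Tgfbr2 and from Tgfbr2 to Tgfb1 were free of overlap. In the Cx3cr1 positive fraction the order was Tgfbr1, Smad3, Tgfb1, Tgfbr2, Smad7, Itgav, Tgfb3, Tgfb2, Ltbp1, Itgb8, where Tgfbr1 (23.8), Tgfb2 (2.03) and the last pair (0.556 and 0.431) were set off and the neighbours from Smad3 to Tgfb3 overlapped. With the longest transcript as the length, Tgfb1 moved to the second place in the Cx3cr1 positive fraction, at 18.5 CPM per kb, and overlapped with Tgfbr1. In the Aldh1l1 positive fraction the same change of length put Itgav (16.1) before Smad3 (15.9) and moved Ltbp1 up to 3.50 CPM per kb, next after Tgfb2. On that length Tgfbr2 (1.15) and Tgfb1 (1.09 CPM per kb) overlapped in this fraction.

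The lines were then compared in their positive over negative ratio as an interaction, a test in which 25.5% of all genes were called higher and 29.9% lower in the Aldh1l1 line, 55.4% in all. Among the 9 genes tested, 4 were higher, 4 lower and 1 not called. The ratio was higher in the Aldh1l1 line for Itgav by 1.07 (SE 0.14, adjusted p = 4.03e-06), Tgfb2 by 1.71 (SE 0.18, adjusted p = 2.05e-07), Ltbp1 by 2.03 (SE 0.25, adjusted p = 1.94e-06) and Smad3 by 0.71 (SE 0.25, adjusted p = 0.0231). It was lower for Tgfb1 (-3.84, SE 0.37, adjusted p = 9.21e-08), Tgfbr1 (-3.35, SE 0.29, adjusted p = 2.5e-08), Tgfbr2 (-2.41, SE 0.27, adjusted p = 6.64e-07) and Smad7 (-1.03, SE 0.18, adjusted p = 0.00011), and Tgfb3 was not called (-0.12, SE 0.21, adjusted p = 0.649). The call of Smad3 was lost without mouse 294 (0.53, adjusted p = 0.0846) and on library totals (0.44, adjusted p = 0.154). Itgb8 differed between the lines by 3.10 (SE 0.51), without a test. This interaction shares all its libraries with the comparisons above.

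**Figure D5:**
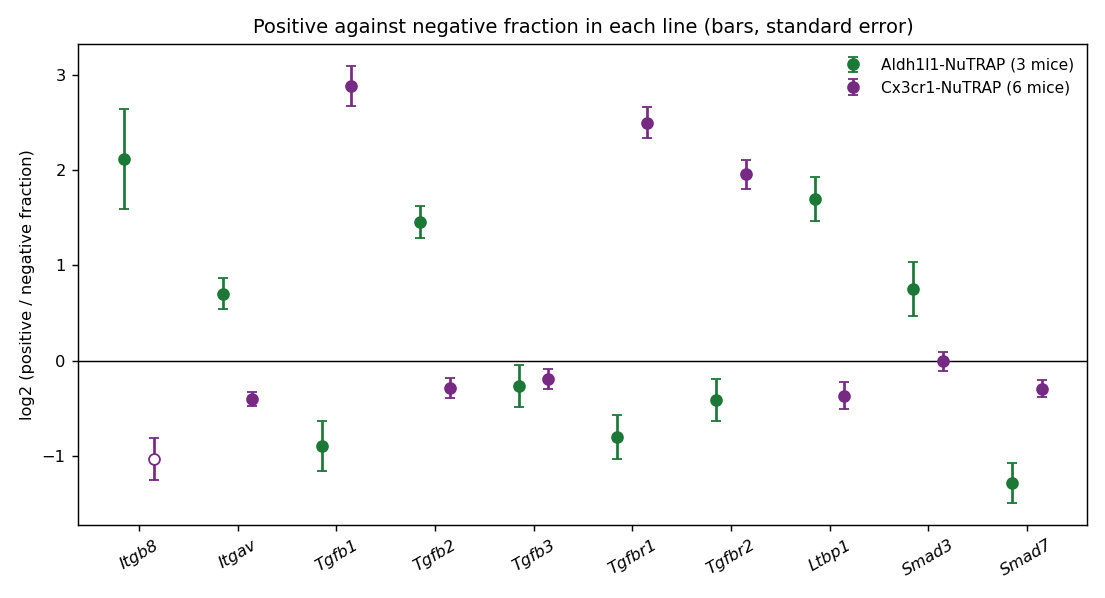
Log2 ratio of positive to negative fraction (y axis) with its standard error for each of the 10 genes (x axis) in the Aldh1l1-NuTRAP and the Cx3cr1-NuTRAP line; the open point is Itgb8 in Cx3cr1, which was not tested. Tgfb1, Tgfbr1 and Tgfbr2 lie above 1.9 in Cx3cr1 and below 0 in Aldh1l1, and Itgb8, Itgav, Tgfb2 and Ltbp1 lie above 0 in Aldh1l1 and below 0 in Cx3cr1.

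Input and whole tissue of the Cx3cr1 line, the 2 starting materials, were compared last. Of the 9 genes tested, Smad3 rose in input by 0.77 (SE 0.10, adjusted p = 9.81e-05), in 5 of 5 mice with no overlap, Tgfbr2 fell by 0.51 (SE 0.12, adjusted p = 0.0046), in 4 of 5 mice, and 7 were not called, where 15.7% of all genes were called higher and 14.6% lower, 30.3% in all. Endothelial markers fell from tissue to input in 8 of 8 cases, by a median of 1.34, and their part in the fall of Tgfbr2, which endothelial cells express, was not tested. Itgb8 was lower in input than in tissue by 0.94 (SE 0.27), without a test, and the log2 difference was -1.197 without mouse 210, whose tissue library was the only one below its own input. Tgfb1 stood at 6.69 ± 0.663 CPM in input (SD, n = 6) and 6.42 ± 0.589 CPM in tissue (n = 5), a log2 difference of 0.07 (SE 0.12, adjusted p = 0.699).

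The genes whose log2 CPM followed Itgb8 most closely over the 29 libraries were Sesn3 (Pearson's r = 0.97), Nebl (0.97), Trpm3 (0.96), Scarb2 (0.96) and Spred1 (0.96). The libraries share fractions and mice, so this is a description, and 4 of the 5 were among the first 5 by Spearman's rho but 0 of the 5 by the 6 group means. Among the other 9 genes of the axis Itgav was the most similar to Itgb8, with r = 0.76, and Tgfb1 the least, with r = -0.67.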

How the data were processed

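Half-brains of Aldh1l1-NuTRAP and Cx3cr1-NuTRAP mice were processed by TRAP, and strand-specific polyA libraries were sequenced. Per the authors' methods, reads were trimmed and then aligned with Strand NGS against mm10. The deposited raw values were taken here to be expected counts per gene, because 82.8% of the nonzero ones are not whole; how the reads were counted is not given in the sources used here. The deposited matrix also holds log2 values, which the authors made by DESeq normalization and which were not used here. Columns were matched to samples by their labels, and 0 columns of per-sample values were without a sample.

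Counts were rounded and tested in R 4.3.3 with edgeR 4.0.16 (quasi-likelihood fit, robust, TMM factors, two-sided), with Benjamini-Hochberg adjustment over all genes tested and a threshold of 0.05, keeping genes whose counts exceeded 20 in all libraries of 1 or more of the groups compared. The mouse was not in the main fit. Libraries of one mouse come from the same animal, and residual correlations were above 0.1 in 3 of 3 pairs of Aldh1l1 fractions and in 3 of 6 pairs of Cx3cr1 positive and negative fractions. No p was computed for Itgb8 outside the Aldh1l1 line or for any member against input. Alternatives were DESeq2 1.42.0, library totals, no filter, all groups in 1 fit, the mouse as a block, and each mouse left out. Levels are CPM, per kilobase over the union of exons of GENCODE for GRCm38. Log2 CPM for likeness used a prior count of 2. Ligand codons were read from GENCODE transcript sequences of GRCm38 and placed with its annotation. The scripts were tested on simulated data.

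The members, lists and tests were chosen with earlier results of these data known. Named from each further list were at most the 2 largest rises and 2 largest falls past the threshold, all beta subunits, and the 5 genes most like Itgb8. Nrros and Ccn2 are listed in the matrix under older symbols. Python 3.11.15, pandas 2.3.3, numpy 2.4.6, scipy 1.17.1 and matplotlib 3.10.9 were used.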

Additional observations from a re-analysis of the deposited data

Results flagged for a closer look

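Single libraries stood apart from their group in 7 of 40 combinations of gene and group examined, by the gap to the nearest library relative to the range of the group; chance alone gives about 1 in 20. Mouse 194 was high, with Tgfb1 at 82.7 CPM and Tgfbr1 at 234 CPM in its Cx3cr1 positive fraction, where the nearest libraries held 47.7 and 156 CPM. Mouse 155 was low in its Cx3cr1 negative fraction, with Tgfb3 at 14.4 CPM and Tgfbr1 at 20.9 CPM against 20.5 and 28.5 CPM in the nearest libraries. Mouse 210 gave the other 3, with Itgb8 at 23.2 CPM in whole tissue (nearest 50.1), Ltbp1 at 9.505 CPM in whole tissue (nearest 6.98) and Ltbp1 at 7.68 CPM in the Cx3cr1 positive fraction (nearest 6.07).

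The log2 ratio of positive to negative fraction differed between the Aldh1l1 and the Cx3cr1 line in 8 of the 9 genes tested by the interaction term of edgeR: Itgav (1.07), Tgfb1 (-3.84), Tgfb2 (1.71), Tgfbr1 (-3.35), Tgfbr2 (-2.41), Ltbp1 (2.03), Smad3 (0.71) and Smad7 (-1.03). Over all genes this test called 25.5% higher and 29.9% lower, 55.4% in all. The call of Smad3 was lost without mouse 294 and on library totals.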

How the results depend on the processing

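Of the tested log2 differences of the members under the alternatives, 579 kept direction and side of the threshold, 13 lost a call, 12 gained one and 16 changed sign, and a further 170 that have no test kept their sign. The sign changed only for genes that were not called. Smad3 in Cx3cr1 positive over negative was 0.0030 with DESeq2, 0.018 with all groups in 1 fit, 0.0023 with the replicate block and -0.029 to 0.046 with a mouse left out. Tgfb3 in input over tissue was 0.0099 on library totals, 0.020 without the filter and -0.042 to 0.051 with a mouse left out. Tgfbr1 in input over tissue was 0.0034 without the filter, 0.061 with the replicate block and -0.10 to 0.046 with a mouse left out. Tgfb3 in the line difference was -0.26 to 0.055 with a mouse left out. The block by mouse gave Smad3 a call in the Aldh1l1 line (0.72) and changed no other call of a member; it could not be fitted between the positive fractions of the lines, which share no mouse. With a mouse left out, 2 to 5 members rose and 1 to 3 fell in the Aldh1l1 line, and 1 to 4 fell in Cx3cr1 positive over negative, where DESeq2 called 4 (Itgav, Smad7, Tgfb2 and Ltbp1). Over all genes, input over tissue gave 1167 higher and 1283 lower calls with all groups in 1 fit against 2130 and 1993; with a mouse left out the Aldh1l1 comparison gave as few as 1977 higher and 1600 lower calls. Library totals moved the median of all genes from 0.04 to -0.31 in the Aldh1l1 positive over negative fraction, from -0.077 to -0.39 between the positive fractions and from -0.11 to -0.38 in the line difference. The replicates are separate mice, 3 of one line and 6 of the other, and the lowest gene rested on 31.5 counts in the shallowest library.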
